A study of Mus musculus with 10 samples.

Results

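The comparison set 2 arrays of scurfy GFP+ T cells that received a Foxp3 retrovirus, by their labels, against 2 arrays of the same kind of cell that received the empty vector. The arrays were chosen by their titles alone, and they are 4 of the 10 arrays of the study, which holds 5 groups of 2. Every array carried 45101 probe sets, of which 45037 were not controls and 26094 passed a filter on low signal and were tested. All 18193 named genes were kept for counts over gene lists.

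The cells were GFP+CD4+ splenocytes. The treatment protocol names DEREG/Scurfy mice among its sources, and D_S in the descriptions of these 4 arrays was read here as that cross. The strain field gives DEREG_Balb/c for all 10 arrays, so the reading rests on the abbreviation. Cells were activated with antibodies to CD3 and CD28, transduced with the vector pGCSamIN, which marks infected cells with the surface protein NGFR, and sorted for NGFR before RNA extraction. In DEREG mice a GFP transgene is driven by the Foxp3 promoter, so GFP marks cells in which that promoter is active, and it does not show Foxp3 protein. The other 3 groups were made the same way, from GFP+ cells of DEREG mice with the empty vector (Treg mock), GFP- cells of DEREG mice with the empty vector (Tconv mock) and GFP- cells labelled as transduced with Foxp3 (Tconv Foxp3). Age, sex, the number of animals, pooling and the share of transduced cells are not stated. Nothing says that arrays of one group came from separate animals or cultures, so each p-value measures only the spread between these arrays, which may be technical.

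Foxp3 is a forkhead transcription factor that regulatory T cells (Treg) need for their suppressive function. The scurfy mutation truncates the Foxp3 protein, and scurfy males die young of uncontrolled T cell activation. Cells that switch on the Foxp3 promoter in such mice carry part of the Treg programme without a working Foxp3 protein, and returning Foxp3 to them by a vector asks which genes depend on the protein.

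The single Foxp3 probe set was lower on the arrays labelled Foxp3 than on the mock arrays. Its intensity was 948 and 691 on the arrays labelled Foxp3 and 1188 and 1114 on the mock arrays, a log2 difference of -0.50 (SE 0.31, n = 2 arrays per group, as for every difference below). Both arrays labelled Foxp3 were lower than both mock arrays, with no overlap, and the 95% interval of the difference ran from -1.20 to 0.20. On the Tconv Foxp3 arrays the probe set was at 18.04 and 18.93, below the array medians of 24.2 and 24. In Tconv mock it was at 53.91 and 35.9, a log2 difference of -0.805 (SE 0.313). The probe set was thus not higher with the label in either kind of cell. Its position in the transcript is not given in the sources used here. It may lie outside the part that the vector carries and then checks nothing about transduction. Whether the probe set reads the vector transcript was not tested. Flicr, a noncoding RNA made beside Foxp3, was at 188 and 306 on the arrays labelled Foxp3 and at 570 and 505 on the mock arrays, a log2 difference of -1.11 (SE 0.31, limma adjusted p = 0.994); it was singled out after its values were seen. Because the Foxp3 probe set leaves the transduction unchecked, the groups are called the arrays labelled Foxp3 and the mock arrays throughout. The Flicr values are no check of it.

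The arrays differed in overall signal. The median intensity was 32.0 and 21.1 on Foxp3 arrays 1 and 2 and 28.3 and 24.0 on mock arrays 1 and 2, so the arrays labelled Foxp3 held both the highest and the lowest median. Foxp3 array 1 was higher than Foxp3 array 2 by at least 1 log2 unit at 4179 tested probe sets and lower at 343, with a median shift of 0.42 between them. The ratio of the 3′ to the 5′ control probe set of Gapdh, a measure of RNA quality, was 2.03 and 2.24 on the arrays labelled Foxp3 and 1.75 and 1.85 on the mock arrays, while that of Actb overlapped between the groups. The part of RNA quality in the results below was not tested. The description of Foxp3 array 2 carries a suffix that the other 9 lack, and its meaning is not stated.

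No probe set passed the test. Fitted with limma over all 10 arrays on log2(intensity + 16), 0 of 26094 probe sets (0%) had a Benjamini-Hochberg adjusted p under 0.05 in scurfy cells, and the smallest was 0.0667. At an unadjusted p under 0.05 there were 665 higher (2.55%) and 443 lower (1.7%). Both arrays labelled Foxp3 lay above both mock arrays for 3440 probe sets (13.2%) and below both for 2627 (10.1%). Of these, 484 (1.85%) were higher and 289 (1.11%) lower by at least 1 log2 unit, which is a 2-fold difference of intensity + 16. Counted over genes, each by its brightest probe set, 14.7% of all genes on the array were higher without overlap and 11.8% lower, and these percentages are the background for the gene lists below.

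The 2 mock arrays differed from each other about as much as they differed from the arrays labelled Foxp3. They lay at least 1 log2 unit apart for 3753 probe sets (14.4%), and the arrays labelled Foxp3 for 4522 (17.3%). Foxp3 array 1 and mock array 2 were the closest pair of the 4, at 5.81%, and Foxp3 array 2 and mock array 1 the furthest, at 21.8%. The other 2 pairs across the groups gave 12.6% for Foxp3 array 1 against mock array 1 and 12.1% for Foxp3 array 2 against mock array 2. For comparison, replicate arrays lay apart for 10.2% in Treg mock, 4.43% in Tconv Foxp3 and 6.27% in Tconv mock.

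**Figure D1:**
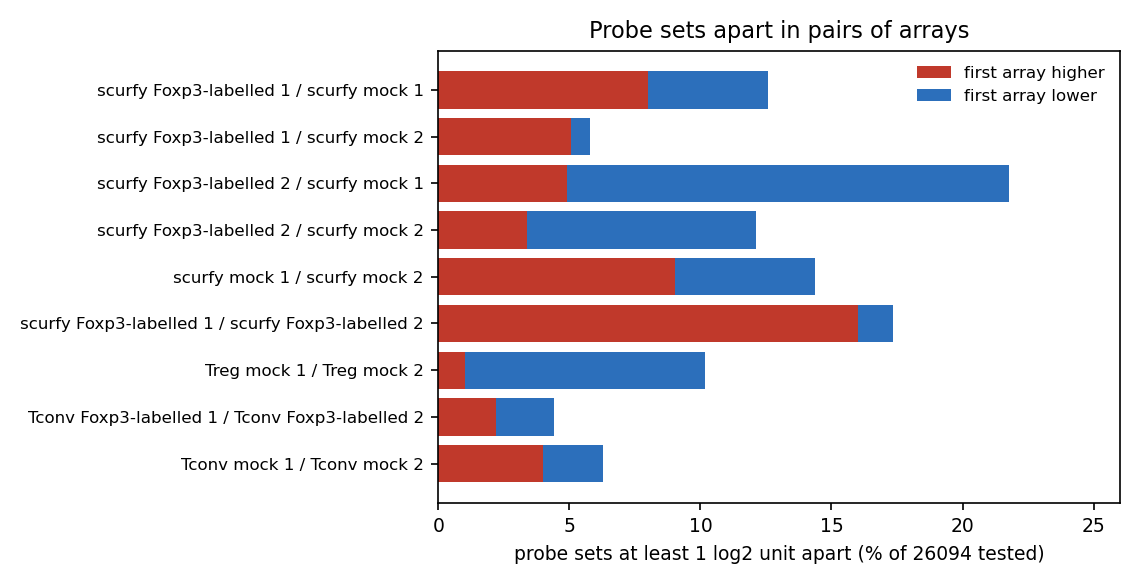
Share of the 26094 tested probe sets at least 1 log2 unit apart in each pair of arrays (x axis, percent), split by which array of the pair was higher. The mock pair (14.4%) and the pair labelled Foxp3 (17.3%) of scurfy cells stand above the replicate pairs of the other groups (4.43% to 10.2%), and Foxp3 array 1 against mock array 2 (5.81%) is the shortest of the bars that cross the groups.

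Mock array 1 carried most of the large differences. In all, 1080 probe sets differed by at least 1 log2 unit between the group means, 612 higher and 468 lower. Against mock array 1 alone, 1005 of them (93.1%) reached 1 log2 unit in the same direction; against mock array 2 alone, 442 (40.9%) did. Of the 1080, 638 (59.1%) reached it against mock array 1 only, 75 (6.94%) against mock array 2 only and 367 (34%) against each. Against mock array 2 the sign was opposite for 110 (10.2%), and against mock array 1 for 2. The direction of the whole comparison moved with the choice of mock. Against mock array 1, 1347 probe sets were higher and 1874 lower by at least 1 log2 unit. Against mock array 2, 717 were higher and 365 lower. The choice of Foxp3 array moved it further, counted over probe sets at least 1 log2 unit apart without overlap. Their higher share was 42.1% without mock array 2 and 68.6% without mock array 1. It was 21.4% without Foxp3 array 1 and 81.2% without Foxp3 array 2.

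Leaving out an array moved the test in the same way. Without mock array 2, which sets the arrays labelled Foxp3 against mock array 1, limma called 77 probe sets, 58 higher and 19 lower, with the lone mock array assumed to vary like the other groups. Of those 77, 24 lay at least 1 log2 unit away from mock array 2 in the same direction and 22 had the opposite sign against it. Without mock array 1 there were 0 calls, with 742 at an unadjusted p under 0.05, and without either array labelled Foxp3 also 0, with 3400 (array 1 left out) and 980 (array 2 left out) at that level.

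**Figure D2:**
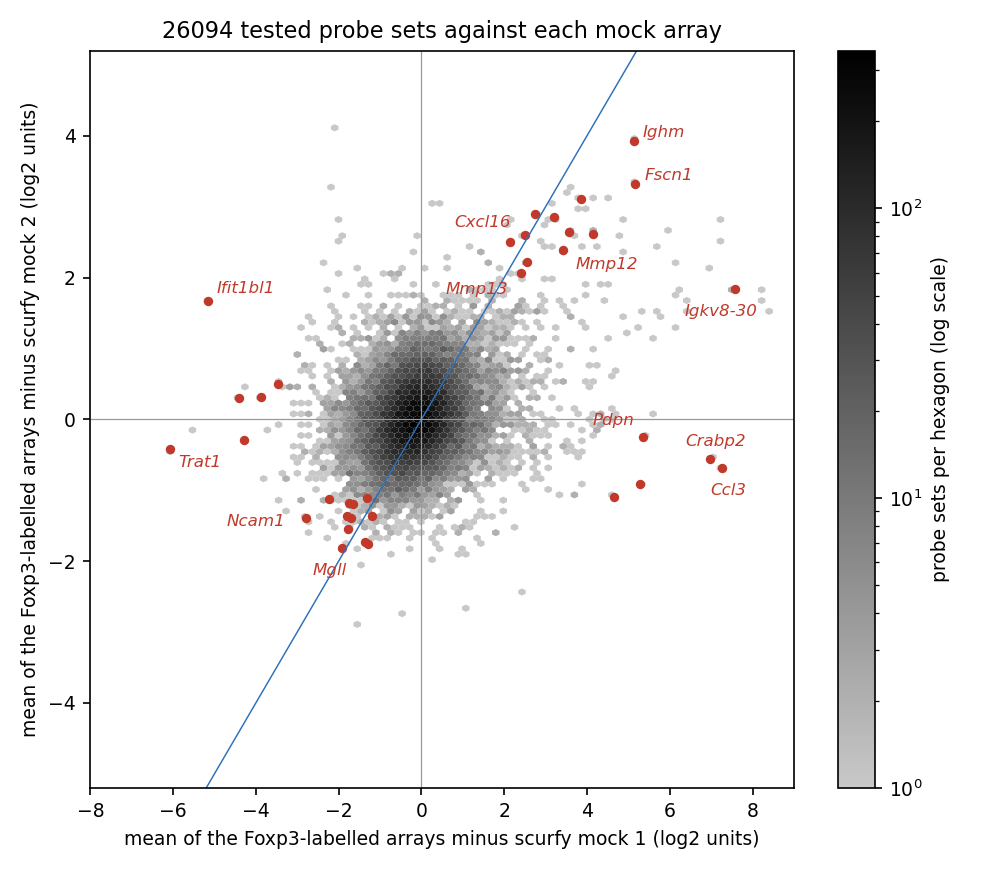
Difference of the mean of the arrays labelled Foxp3 from mock array 1 (x axis) and from mock array 2 (y axis), both in log2 units, for 26094 tested probe sets (grey hexagons, log colour scale) with the genes named by the rule as red points. The blue line marks equal differences; Cxcl16 lies near it at 2.50 and 2.60, while Ccl3 lies at 7.27 and -0.69 and Trat1 at -6.08 and -0.41.

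A few genes were far higher on both arrays labelled Foxp3 than on either mock array. Cxcl16, a transmembrane chemokine that binds the receptor CXCR6, was at 380 and 376 on the arrays labelled Foxp3 and at 53.5 and 49.1 on the mock arrays. The values within each group were close, and the groups did not overlap. The log2 difference was 2.55 (SE 0.30), with 2.50 against mock array 1 and 2.60 against mock array 2, so at this probe set both mock arrays gave it alike. A second Cxcl16 probe set differed by 2.25, with mock arrays at 11.6 and 50.7, which gave 2.89 against mock array 1 and 1.62 against mock array 2. At the first probe set the limma adjusted p was 0.0667, and over the alternatives it ran from 0.0271 to 0.701. At the second the limma adjusted p was 0.593.

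Mmp13, the matrix metalloproteinase collagenase 3, was at 77.9 and 61.0 on the arrays labelled Foxp3 and at 0.0878 and 4.30 on the mock arrays. Both mock values, and all 6 values of the other groups, lay below the array medians, that is at background. The log2 difference of 2.24 (SE 0.27, 2.40 against mock array 1 and 2.07 against mock array 2) is therefore a difference from background and understates a change on the linear scale. Mmp12, the macrophage metalloelastase, whose gene lies in the same cluster, was at 211 and 117 against 0.169 and 17.2, a difference of 2.91 (SE 0.39), also from mock arrays at background. On both genes the arrays labelled Foxp3 were above every one of the other 8 arrays. Mmp12 and Mmp13 passed the filter on low signal only through the 2 arrays labelled Foxp3, so they entered the test because they were high there, and their adjusted p-values are not read as support. Without that filter the limma adjusted p was 0.0924 for Mmp13 and 0.353 for Mmp12, and it ran from 0.0264 to 1 and from 0.0161 to 0.993 over all alternatives.

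The promoters of these 2 protease genes are printed because the vector is meant to supply a forkhead factor, and because metalloproteinase genes are textbook targets of AP-1, the Fos and Jun factor of activated T cells. Each line gives the 120 bases before an annotated start in RefSeq GRCm38.p6, 5′ to 3′ on the gene's strand, with matches in capitals. The Mmp13 window is chr9:7272394-7272513 and the Mmp12 window, at the second of its 2 annotated starts, chr9:7347254-7347373, both on the plus strand.
Mmp13: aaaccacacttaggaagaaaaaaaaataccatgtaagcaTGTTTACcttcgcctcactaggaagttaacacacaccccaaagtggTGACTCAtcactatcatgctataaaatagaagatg
Mmp12: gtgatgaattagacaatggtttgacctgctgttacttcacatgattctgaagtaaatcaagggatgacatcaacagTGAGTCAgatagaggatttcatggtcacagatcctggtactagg
The letters searched on both strands were GTAAACA for forkhead factors and TGANTCA for AP-1; the motifs do not overlap each other here. In Mmp13 the forkhead letters start 81 bases before the gene's start, on the reverse strand, and the AP-1 letters 35 bases before it. In Mmp12 the AP-1 letters start 44 bases before the start, and the window before the first annotated start, not printed here, has neither motif. Over the 250 bases before the start, 3.17% of 32851 RefSeq promoters hold the forkhead letters and 6.75% the AP-1 letters. Of the 12 leading higher genes 5 were in the promoter table, 1 with forkhead and 2 with AP-1 letters; of the 12 leading lower genes 8 were, 1 of them (Mgll) with forkhead and 0 with AP-1 letters. The AP-1 letters were searched after the data were seen. A gene was counted if any of its annotated starts had a match, while the shares are over single promoters, so the 2 are unlike measures. A match describes letters and shows neither binding nor control.

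The rule for leading genes took the 12 with the widest gap between the lowest array labelled Foxp3 and the highest mock array. Besides Cxcl16, Mmp12 and Mmp13 it gave Fscn1, Csf2rb, Cd86, Ighm, Mapk10, Tyrobp, Igha, Pxdc1 and Clec4n. Because the rule uses this comparison, the gaps are a description.

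Pxdc1, a phox-homology domain protein, was at 398 and 345 on the arrays labelled Foxp3 and at 49.7 and 66.7 on the mock arrays, a log2 difference of 2.39 (SE 0.28, limma adjusted p = 0.0667). Clec4n, the C-type lectin Dectin-2 of myeloid cells, was at 76.7 and 76.2 against 5.16 and 0.301, a difference of 2.32 (SE 0.28). Clec4n too was at background on the other 8 arrays and passed the filter only through the arrays labelled Foxp3. Mapk10, the kinase JNK3, was at 274 and 262 against 0.0194 and 30.3, a difference of 3.38 (SE 0.44, limma adjusted p = 0.0979). The Treg and Tconv arrays were at 5.49 or less for Mapk10, and their small spread at background enters the shared SE. At these probe sets the groups stood clear of each other in all 3 genes, and only Mapk10 had mock arrays over 1 log2 unit apart. Other Mapk10 probe sets were dim and not tested. One was at 19.6 and 19.8 against 0.826 and 0.786, and another overlapped, with a difference of 0.09.

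Fscn1, the actin-bundling protein fascin of mature dendritic cells, was at 800 and 669 on the arrays labelled Foxp3 and at 5.05 and 59.2 on the mock arrays, a log2 difference of 4.23 (SE 0.71). Csf2rb, the shared beta chain of the GM-CSF and IL-3 receptors, was at 246 and 238 against 1.75 and 14.0, a difference of 3.48 (SE 0.69). Cd86, the costimulatory ligand of CD28 and CTLA-4, was at 342 and 324 against 21.9 and 32.4, a difference of 3.03 (SE 0.69). At these probe sets both arrays labelled Foxp3 were tight for the 3 genes and well above both mock arrays. Among the other 6 arrays Treg mock array 2 was the highest for each gene, at 98.2, 72.6 and 172. The limma adjusted p was 0.291, 0.437 and 0.679. Fscn1 differed by 5.15 from mock array 1 and by 3.31 from mock array 2. A brighter Fscn1 probe set, with mock arrays at 13.7 and 278, gave 5.93 and 2.63 (SE 1.27 for the group difference). Others differed by 2.55 and, at a dim untested one with overlap, by -0.33.

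**Figure D3:**
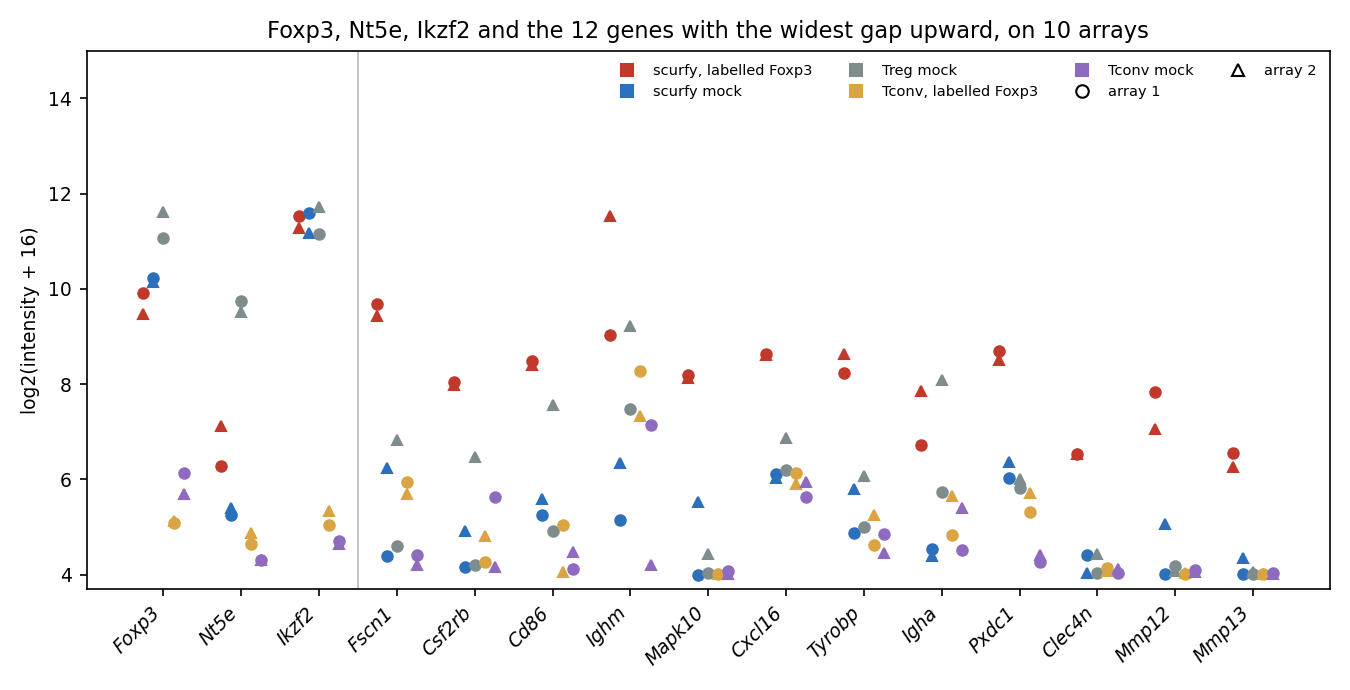
log2(intensity + 16) on each of 10 arrays (colours for groups, circles for array 1, triangles for array 2) for Foxp3, Nt5e and Ikzf2 on the left and for the 12 genes with the widest upward gap on the right. For the 12 genes both red points lie above both blue points, as the rule requires; Foxp3 and Nt5e are highest in Treg mock, and Ikzf2 is alike in scurfy and Treg arrays.

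Other settings took a few of these genes past the threshold. With 1 probe set per gene, Cxcl16, Mmp13, Clec4n and Pxdc1 passed the threshold, each at a limma adjusted p of 0.0297. With arrays scaled to a common 75th percentile those 4 and Mmp12 passed, each at a limma adjusted p of 0.039. Cxcl16 and Pxdc1 were each called in 4 of 21 alternatives, and Mmp13 and Clec4n in 3 of 20. For Mmp12, Mmp13 and Clec4n these calls carry the limit given above, since the filter admitted them through the group where they were high. The limma adjusted p ran over the alternatives from 0.0264 to 0.912 for Pxdc1 and from 0.0297 to 0.955 for Clec4n, which was at 0.0924 without the filter.

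Nt5e encodes CD73, the ectoenzyme with which Treg make adenosine. It was at 62.0 and 124 on the arrays labelled Foxp3, at 22.0 and 26.4 on the mock arrays, at 838 and 720 in Treg mock and at 3.92 and 3.77 in Tconv mock. The arrays labelled Foxp3 lay above both mock arrays and below both Treg arrays, and no 2 of these 4 groups overlapped. The log2 difference in scurfy cells was 1.38 (SE 0.32, limma adjusted p = 0.679), with 1.46 against mock array 1 and 1.30 against mock array 2, so each mock array gave it. Other probe sets of the gene differed by 0.62 and -0.26, so the probe sets disagree in sign.

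The best known Treg genes differed little. Il2ra, the IL-2 receptor alpha chain, was at 9123 and 8310 on the arrays labelled Foxp3 and at 7902 and 7962 on the mock arrays, a log2 difference of 0.13 (SE 0.26) with a 95% interval from -0.45 to 0.71. Ctla4, the inhibitory receptor for CD80 and CD86, was at 5865 and 4330 against 4592 and 4502, a difference of 0.15 (SE 0.40). The Ctla4 values overlapped, while those of Il2ra did not but lay close together.

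Tnfrsf18, the receptor GITR, differed by -0.12 (SE 0.34), Ikzf2, the factor Helios, by 0.02 (SE 0.31) and Ikzf4, the factor Eos, by -0.04 (SE 0.30), each with overlapping arrays. Ikzf2 was already at 3061 and 2303 on the mock arrays, next to 2261 and 3341 in Treg mock and 10.2 and 9.03 in Tconv mock. The mock arrays overlapped the Treg arrays for this gene, and the arrays labelled Foxp3, at 2940 and 2472, lay between the mock values.

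The list of Treg surface and effector molecules had 27 genes on the array. Of these, 9 (33.3%) were higher without overlap and 1 (3.7%) lower, and the median difference was 0.25, beside -0.01 over all genes. Itgb8, which helps to activate TGF-beta, was at 21.5 and 66.1 against 0.118 and 17.4 and at 233 and 349 in Treg mock. Among the scurfy values of Itgb8 only 66.1 lay above its array median, so the groups are set apart by values at background. Il10, the suppressive cytokine, was at 3933 and 2983 against 834 and 2735, a difference of 1.17 (SE 0.62) that was 2.02 against mock array 1 and 0.32 against mock array 2. The sole member lower without overlap was Lgals1, which was named after its values were seen and differed by -0.13. Of 25 Treg-related transcription factors 3 (12%) were higher and 1 (4%) lower without overlap, with a median of -0.04. The 3 higher were Nr4a1, Nr4a3 and Rel, which also belong to the early genes of T cell receptor signalling, and the lower one was Foxp3 itself.

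Probe sets that separate Treg from Tconv were read in the scurfy arrays, whose levels do not enter that contrast. Their spread within groups does enter the error that all groups share, which favours probe sets with close scurfy replicates, so the shares below are a description. limma called 241 probe sets higher in Treg mock than in Tconv mock, of which 78 (32.4%) were higher and 18 (7.47%) lower without overlap on the arrays labelled Foxp3, beside 13.2% and 10.1% of all tested probe sets. Their median difference was 0.12, against -0.04 over all tested probe sets, with 0.10 against mock array 1 and 0.24 against mock array 2. Of the 40 called lower in Treg, 5 (12.5%) were higher and 10 (25%) lower without overlap, with a median of -0.21 that was -0.03 against mock array 1 and -0.18 against mock array 2.

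Genes that Foxp3 is known to repress did not stand lower. Il2, the T cell growth factor, was at 7.01 and 25.0 on the arrays labelled Foxp3 and at 6.96 and 14.8 on the mock arrays, near background and overlapping. Ifng, interferon gamma, was at 1362 and 1751 against 356 and 1861, a log2 difference of 0.90 (SE 0.83) that was 2.07 against mock array 1 and -0.27 against mock array 2. Il7r, the IL-7 receptor, was at 2777 and 3108 against 4671 and 2426, and Pde3b, a phosphodiesterase that Foxp3 is known to repress, at 773 and 683 against 2510 and 444. In Ifng, Il7r and Pde3b mock array 1 and mock array 2 lay on opposite sides of the arrays labelled Foxp3. Of 18 listed genes that are known as repressed by Foxp3 or low in Treg, 3 (16.7%) were higher without overlap and 0 lower, with a median of 0.55, of 0.67 against mock array 1 and of 0.07 against mock array 2.

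Effector cytokines were higher for many members. Of 18 genes 8 (44.4%) were higher without overlap and 0 lower, with a median of 0.90, but that median was 1.65 against mock array 1 and 0.17 against mock array 2. Tnf was at 219 and 211 against 41.4 and 96.7, a log2 difference of 1.52 (SE 0.34, limma adjusted p = 0.679). Tnfsf11, the osteoclast factor RANKL, was at 770 and 672 against 78.0 and 479, and Il3 at 151 and 25.1 against 0.954 and 13.3. For Tnfsf11 mock array 1 was the low array, and for Il3 the arrays labelled Foxp3 differed most.

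Chemokines gave 8 higher (47.1%) and 1 lower (5.88%) of 17, with a median of 1.34, of 1.79 against mock array 1 and of 0.45 against mock array 2. Ccl17, a ligand of CCR4, was at 275 and 211 against 4.67 and 64.9, a difference of 2.65 (SE 0.91). Ccl22, the other CCR4 ligand, was at 2473 and 1764 against 0.74 and 454, and at 1.57 and 1886 on the Treg mock arrays; it was named after its values were seen. The Ccl22 mock arrays lay 4.81 log2 units apart, more than the group difference of 4.57 (SE 1.97).

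Early genes of T cell receptor signalling showed the same dependence. Of 27 genes 11 (40.7%) were higher and 0 lower without overlap, with a median of 0.70, which was 1.20 against mock array 1 and 0.08 against mock array 2. Nr4a3, an orphan nuclear receptor, was at 388 and 450 against 2.61 and 180, and Nr4a1, its relative, at 285 and 376 against 35.9 and 162. Dusp2, a phosphatase of the MAP kinases, differed by 1.02 (SE 0.33), and Nfkbid, a nuclear regulator of NF-kappa B, by 0.87 (SE 0.31). Mock array 1 was the lowest of the 4 arrays in each of these 4 genes.

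Interferon-induced genes differed between the mock arrays more than between the groups. Of 26 genes 1 (3.85%), Cxcl10, was higher without overlap and 0 were lower. Their median difference was -1.17 against mock array 1, 1.03 against mock array 2 and 0.22 against the mean of both. Mx1, an antiviral GTPase, was at 70.0 and 40.8 on the arrays labelled Foxp3, at 309 on mock array 1 and at 31.2 on mock array 2. Rsad2, the antiviral protein viperin, was at 668 and 220 against 1802 and 7.23 and was named after its values were seen; its other probe sets differed by 0.06 and -0.12, beside 0.97. Gbp2 was at 566 and 304 against 1712 and 451, and Ifit2 at 259 and 116 against 940 and 97.8. Mock array 1 was the highest of the 4 arrays for all 4 genes, and mock array 2 the lowest for Mx1, Rsad2 and Ifit2.

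**Figure D4:**
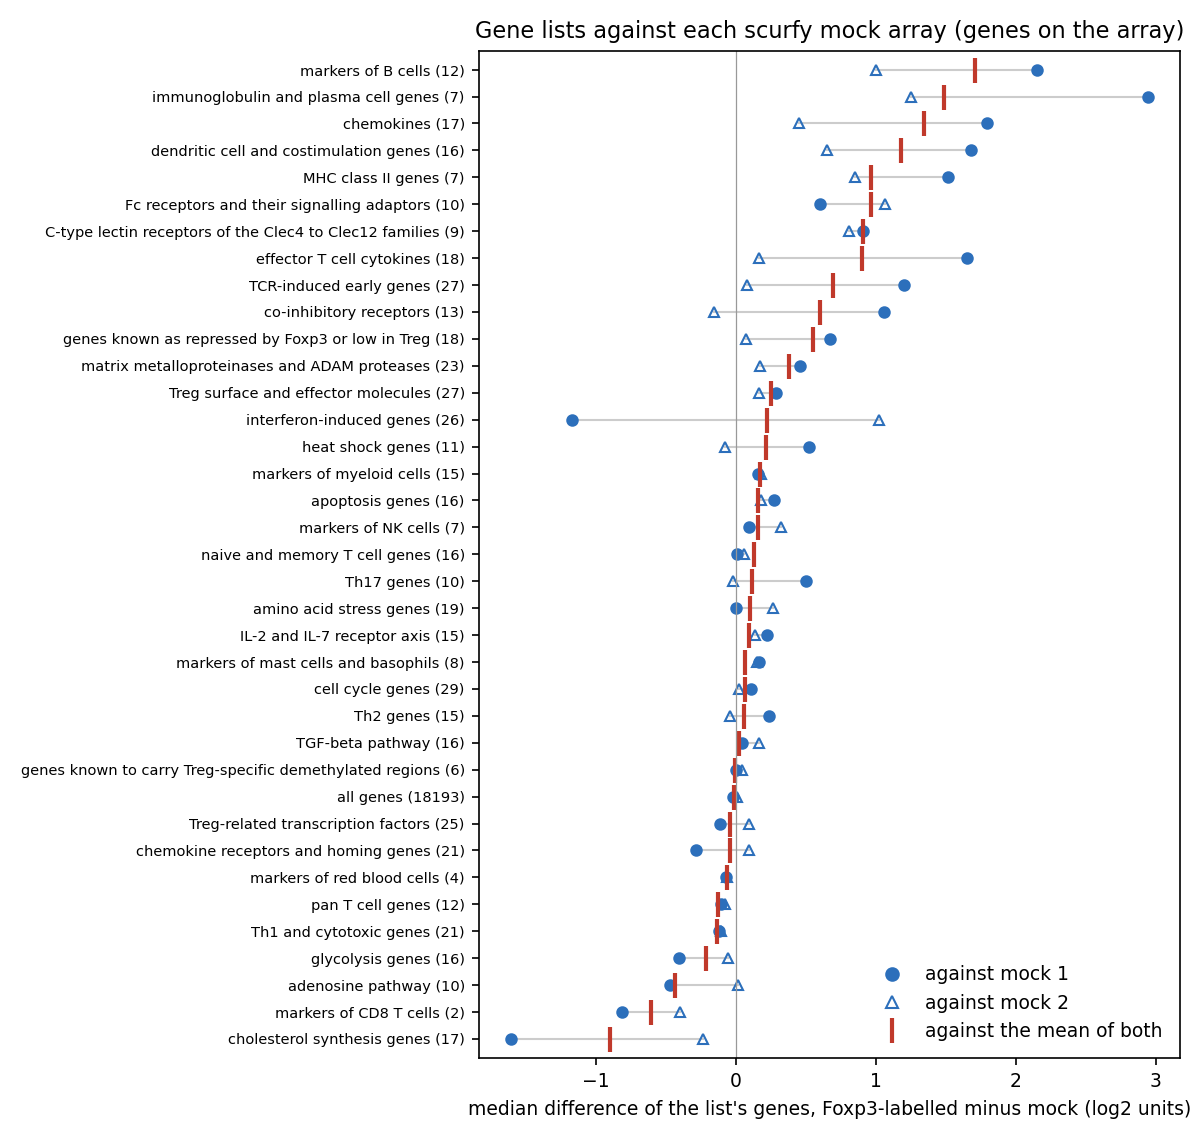
Median log2 difference of each gene list (genes on the array in brackets) against mock array 1 (filled circles), mock array 2 (open triangles) and the mean of both (red bars). Interferon-induced genes lie on both sides of 0 (-1.17 and 1.03), effector cytokines move from 1.65 to 0.17, and markers of B cells stay above 1 against each mock array (2.15 and 1.00).

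The genes of this and the next paragraph were picked for the largest difference between the mock arrays. The pick was made among probe sets that differed by at least 1 log2 unit between the group means. A mock array that stands apart is therefore given by the rule, and these genes are only a description. Ccl3, an inflammatory chemokine, was at 2352 and 2703 on the arrays labelled Foxp3, at 0.406 on mock array 1 and at 4068 on mock array 2. Crabp2, a retinoic acid binding protein, was at 1770 and 3057 against 2.69 and 3423. Pdpn, the mucin podoplanin, was at 957 and 674 against 4.12 and 963. In each, mock array 2 was above both arrays labelled Foxp3, and mock array 1 was at background.

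Akr1c18, a progesterone-metabolising enzyme, showed the same order, at 2350 and 2563 against 48.0 and 4636. Trat1, a T cell receptor adaptor, went the other way, at 5.15 and 2.90 against 1334 and 10.7. Stc2, a secreted glycoprotein, was at 232 and 153 against 2986 and 148, Hgf, a growth factor, at 26.6 and 55.4 against 1063 and 51.2, and Ifit1bl1, an interferon-induced gene, at 31.1 and 75.8 against 2320 and 4.71. For these 4 genes mock array 1 was the highest of the 4 arrays, and each of the other 3 was at 232 or less. Igkv8-30, an immunoglobulin light chain segment, was at 2768 and 3866 against 1.23 and 900, so it was higher without overlap, by 7.58 against mock array 1 and by 1.84 against mock array 2.

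Cholesterol synthesis genes were lower as a list. Of 17 genes 10 (58.8%) were lower and 0 higher without overlap, with a median of -0.90, of -1.61 against mock array 1 and of -0.24 against mock array 2. Fdps, farnesyl diphosphate synthase, was at 426 and 260 against 1723 and 611, a log2 difference of -1.58 (SE 0.51). Insig1, which holds the sterol sensor in place, was at 762 and 723 against 3218 and 1020, and Sqle, squalene epoxidase, at 388 and 327 against 1350 and 558. Mock array 1 was the highest of the 4 for all 3, and mock array 2 stood above the arrays labelled Foxp3 by less. Hsd17b7, a later enzyme of the pathway, differed by -1.09 (SE 0.46).

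The 12 genes with the widest downward gap were dim at the probe sets that the rule picked. They were B3gnt9, Unc13a, Thra, Rps27, Cryab, Nrip1, Itgb5, Gpx7, Mgll, C1ql3, Ttll3 and Ncam1, with differences from -1.21 to -2.09. Thra, the thyroid hormone receptor alpha, was at 10.2 and 16.5 on the arrays labelled Foxp3 and at 85.3 and 58.8 on the mock arrays, a log2 difference of -1.58 (SE 0.29, limma adjusted p = 0.343), but another tested Thra probe set differed by 0.62 with overlapping arrays, so the probe sets disagree in sign. Ncam1, a neural adhesion molecule that also marks some lymphocytes, was at 17.4 and 5.60 against 170 and 54.3, a difference of -2.09 (SE 0.45, limma adjusted p = 0.591). Mgll, monoglyceride lipase, was the brightest, at 74.6 and 16.4 against 189 and 175. At the picked probe sets none of the 12 exceeded an intensity of 189 on a mock array. Other probe sets did not always follow: 4 brighter ones of Nrip1, a nuclear receptor corepressor, were at 207 to 484 on the mock arrays and differed by -0.07 to -0.74, with overlap in 3 of the 4.

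The remaining lists are given by their counts, beside 14.7% higher and 11.8% lower over all genes. Of 23 matrix metalloproteinase and ADAM genes 7 (30.4%) were higher and 2 (8.7%) lower without overlap, with a median of 0.38. Apoptosis genes gave 6 higher (37.5%) and 0 lower of 16, and co-inhibitory receptors 3 higher (23.1%) and 1 lower (7.69%) of 13. The TGF-beta pathway gave 5 higher (31.2%) and 1 lower (6.25%) of 16. Glycolysis genes gave 0 higher and 4 lower (25%) of 16, with a median of -0.21. Cell cycle genes gave 2 higher (6.9%) and 1 lower (3.45%) of 29, with summed intensities of 55840 and 35520 against 44140 and 47090. The lower one was Mki67, at 3587 and 640 against 3691 and 3615, so its difference of -1.25 came from Foxp3 array 2. Top2a, at 2622 and 654 against 2102 and 1991, was also lowest on that array. Heat shock genes gave 0 of 11 either way, and the 6 genes with Treg-specific demethylated regions 1 either way (16.7% each), Il2ra higher and Foxp3 lower. The Th1, Th2 and Th17 lists each held 2 genes that were higher without overlap, of 21, 15 and 10 (9.52%, 13.3% and 20%). The Th2 list also held 2 that were lower (13.3%). Homing genes gave 5 higher (23.8%) and 2 lower (9.52%) of 21, and adenosine genes 1 higher (Nt5e, 10%) and 2 lower (20%) of 10. The IL-2 and IL-7 axis gave 4 higher (26.7%) of 15, and naive and memory genes 2 higher (12.5%) of 16. Amino acid stress genes gave 5 higher (26.3%) and 1 lower (5.26%) of 19. Mast cell and basophil markers gave 3 higher (37.5%) and 1 lower (12.5%) of 8, of which only 2 passed the filter on low signal. Red blood cell markers gave 0 higher and 2 lower (50%) of 4, of which only 1 passed it. The counts of these marker lists are thus largely an order among values near background.

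Markers of other cells were higher on the arrays labelled Foxp3 along with the genes above. T cell genes were near level: 1 of 12 (8.33%) was higher and 3 (25%) lower without overlap. The summed intensity of these pan T cell genes was 40680 and 35550 against 42300 and 40310, and their median difference was -0.13. The 2 CD8 markers, Cd8a and Cd8b1, were dim and lower, at summed intensities of 52.6 and 51.1 against 108 and 72.9. In bulk RNA, fewer cells of a type and less RNA per cell cannot be told apart.

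B cell markers were higher for most members. Of 12 genes 10 (83.3%) were higher and 0 lower without overlap, with a median of 1.71, of 2.15 against mock array 1 and of 1.00 against mock array 2. Their summed intensity was 3753 and 8763 on the arrays labelled Foxp3 and 157 and 1731 on the mock arrays, and it ran from 199 to 3389 on the other 6 arrays. Cd79a, a chain of the B cell receptor, was at 302 and 933 against 4.50 and 73.5, a difference of 3.68 (SE 0.88). Pax5, the B lineage factor, was at 58.1 and 51.3 against 1.66 and 10.7, and Ms4a1, the antigen CD20, at 99.9 and 170 against 4.46 and 80.6. Ighm, the IgM heavy chain, was at 505 and 2921 against 19.2 and 65.4 at the probe set picked for its gap and Igha, the IgA heavy chain, at 89.8 and 216 against 7.36 and 5.07. Other Ighm probe sets were brighter on mock array 2: one was at 763 and 3200 against 5.31 and 443, a difference of 6.21 against mock array 1 and of 1.79 against mock array 2. Jchain, which joins secreted IgM and IgA, differed by 3.41 (SE 1.08). Of 7 immunoglobulin and plasma cell genes, a list added after values were seen, 5 were higher and 0 lower without overlap.

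MHC class II genes moved with the B cell markers. Of 7 genes 5 (71.4%) were higher and 0 lower without overlap, with a median of 0.97, and the summed intensity was 5614 and 7646 against 758 and 2725. H2-Aa was at 1114 and 1685 against 0.397 and 412, a log2 difference of 4.05 (SE 1.37), and H2-Eb1 at 1192 and 1409 against 8.15 and 474, a difference of 3.59 (SE 1.46). Cd74, the invariant chain, differed by 3.43 and H2-Ab1 by 0.97. Mock array 1 was the lowest of the 4 arrays for all 4 genes.

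The class II promoters are printed because these genes moved together and share a textbook element, the Y box bound by NF-Y. The lines give the 120 bases before the start in RefSeq GRCm38.p6, for H2-Aa at chr17:34287824-34287943 on the minus strand and for H2-Eb1 at chr17:34305747-34305866 on the plus strand, with the letters CTGATTGG in capitals.
H2-Aa: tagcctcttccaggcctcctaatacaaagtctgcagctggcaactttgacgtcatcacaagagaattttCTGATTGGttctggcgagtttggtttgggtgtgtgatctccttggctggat
H2-Eb1: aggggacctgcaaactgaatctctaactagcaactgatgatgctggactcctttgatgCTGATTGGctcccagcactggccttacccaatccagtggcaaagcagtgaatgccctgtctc
The letters start 51 bases before the H2-Aa start and 62 bases before the H2-Eb1 start, and 3.83% of RefSeq promoters hold them on either strand within 250 bases. These letters and those of AP-1 were searched after the data were seen.

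Markers of antigen-presenting myeloid cells were mixed. Of 15 myeloid markers 6 (40%) were higher and 0 lower without overlap, with a median of 0.17, and their summed intensity was 447 and 611 against 206 and 263. Cd14, one of the 6, was at 3.61 and 5.44 against 2.35 and 2.11, at background. Cd14 itself, Itgam, Csf3r, Adgre1, S100a8, S100a9, Mpo and Lyz1, which define monocytes, macrophages and neutrophils, stayed under 15 on all 4 arrays and were not tested. Cd68, a lysosomal glycoprotein, was at 119 and 313 against 69.9 and 54.4, and Fcgr3, an Fc receptor, at 68.9 and 75.5 against 43.0 and 22.3. Tyrobp, the adaptor DAP12, was at 284 and 383 against 13.3 and 39.5, a log2 difference of 3.10 (SE 0.45, limma adjusted p = 0.186), and Fcer1g, the Fc receptor gamma chain, at 127 and 118 against 10.7 and 29.0, a difference of 2.00 (SE 0.35). These were the 2 of 7 NK cell markers that were higher without overlap; Ncr1, Klra8, Klra1 and Klre1 were at 10.6 or less on all 4 arrays. The seventh, Klrk1, the receptor NKG2D, was at 29.7 and 14.6 against 323 and 11, a difference of -1.35 (SE 0.89) that was -3.18 against mock array 1 and 0.47 against mock array 2.

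Dendritic cell and costimulation genes, a list also added after values were seen, had 13 of 16 (81.2%) higher and 0 lower without overlap, with a median of 1.18, of 1.68 against mock array 1 and of 0.65 against mock array 2. Cd40 was at 341 and 560 against 128 and 142, a log2 difference of 1.59 (SE 0.32). Of 10 Fc receptors and adaptors, likewise added, 5 (50%) were higher and 2 (20%) lower. Fcgr2b, the inhibitory receptor of B cells and myeloid cells, was at 33.7 and 53.7 against 2.32 and 0.45. Of 9 C-type lectin receptors, added in the same way, 5 (55.6%) were higher and 1 (11.1%) lower, beside 14.7% and 11.8% of all genes. Only 2 of the 9 passed the filter, and 0 were above the array median on either mock array, so most of this order lies near background. Clec4d, a relative of Clec4n, was at 205 and 57.8 against 0.336 and 7.25. Like Clec4n, it passed the filter only through the arrays labelled Foxp3. The part of B cells, dendritic cells or other cells in the leading genes, Cxcl16, Mmp12, Mmp13, Fscn1 and Cd86 included, was not tested.

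**Figure D5:**
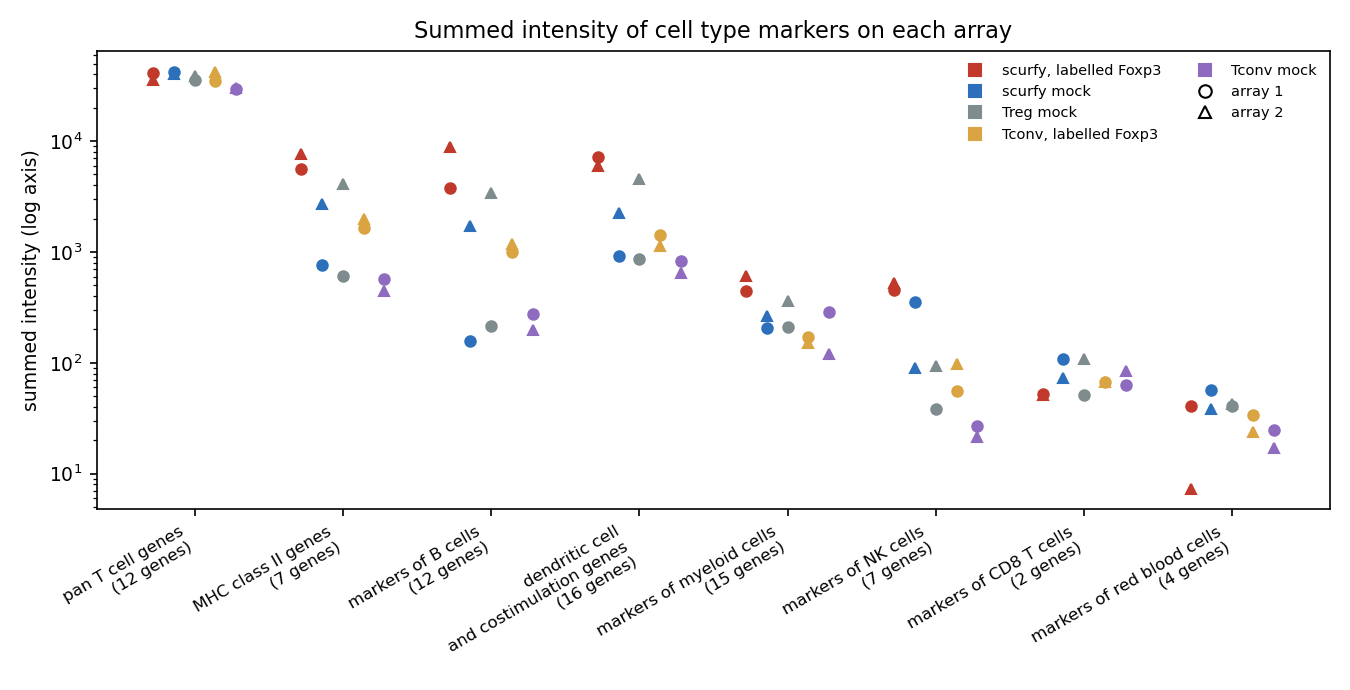
Summed intensity (log y axis) of cell type marker lists on each of 10 arrays (colours for groups, circles for array 1, triangles for array 2). Pan T cell genes are alike on all 4 scurfy arrays (35550 to 42300), while B cell markers are at 3753 and 8763 on the arrays labelled Foxp3 and at 157 and 1731 on the mock arrays, and at 214 and 3389 on the Treg arrays.

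The same label was compared in conventional cells, with other arrays on both sides. The difference between the 2 effects of the label was tested in the same limma fit, and 0 of 26094 probe sets (0%) had an adjusted p under 0.05, with 2067 at an unadjusted p under 0.05 and a smallest adjusted p of 0.343. Cxcl16 differed by 0.23 in Tconv cells, so the difference of the effects was 2.32 (SE 0.43, limma adjusted p = 0.402). Mmp13 differed by -0.02 in Tconv cells and was at background on all 4 arrays there, so the difference of the effects, 2.25 (SE 0.38, limma adjusted p = 0.343), repeats the scurfy difference. This adjusted p is not read either, since Mmp13 passed the filter only through the scurfy arrays labelled Foxp3. Nt5e differed by 0.45 in Tconv cells and the difference of the effects was 0.92 (SE 0.46, limma adjusted p = 0.639). Neither Cxcl16 nor Nt5e was shown to respond differently in the 2 kinds of cell, and for Mmp13 no conclusion is drawn.

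Some markers of other cells differed in Tconv cells too. H2-Eb1 differed by 3.61 there and by 3.59 in scurfy cells, and H2-Aa by 3.42 and 4.05, so the differences of the effects were -0.02 (SE 2.06) and 0.63 (SE 1.94). Il10 went opposite ways: it was at 198 and 45.5 on the Tconv arrays labelled Foxp3 and at 2173 and 1835 in Tconv mock, a log2 difference of -4.13. The difference of the effects was 5.30 (SE 0.88, limma adjusted p = 0.343), which did not pass.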

How the data were processed

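RNA of sorted, transduced mouse CD4+ T cells was amplified, labelled with biotin and measured on Affymetrix Mouse Genome 430 2.0 arrays, per the labels' protocols. The authors processed the arrays in Affymetrix Expression Console, per the submitters' processing notes, and deposited a linear intensity per probe set and array; no source used here gives its version, summary method or scaling. Gene names came from GEO's platform annotation: 34945 probe sets had 1 symbol, 932 several and 9160 none, and none was named from a probe set with several.

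Intensities were used as deposited, as log2(intensity + 16). Probe sets above the array median on at least 2 of 10 arrays were tested with limma 3.58.1 in R 4.3.3 (lmFit, eBayes) over the 10 arrays and 5 groups, with 5 residual and 4.72 prior degrees of freedom; p-values are two-sided and adjusted by Benjamini-Hochberg over all 26094. The script was tested on simulated data. The number of arrays, 2 per group, limits precision.

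Members, 32 gene lists and the rules were chosen with earlier results of these data known, and 4 lists were added after their values were seen. Named genes were a fixed set of 13, the 12 widest gaps each way, genes with the largest difference between mock arrays, and up to 4 members per list with the smallest p; exceptions are stated, and members of the 4 added lists are exceptions too. Alternatives changed the scaling, pseudocount, filter, probe sets per gene, eBayes options, array weights, arrays in the fit and replicate block, and left out each array.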

Additional observations from a re-analysis of the deposited data

How the results depend on the processing

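The 2 arrays per group limit precision, and values near background are no measured levels. The count of calls in scurfy cells was 0 as reported, 5 after scaling to a common 75th percentile, 1 and 3 when the pseudocount was 1 and 64, and 4 with 1 probe set per gene; fewer genes were tested in the last. Leaving out single arrays gave 0 to 77 calls, the 77 without mock array 2, and 0 to 6 for the difference of the effects, the 6 without the same array. Probe sets higher and lower by at least 1 log2 unit without overlap, 484 and 289 as reported, were 923 and 778 with a pseudocount of 1, 202 and 63 with 64, 212 and 99 with a filter at the 75th percentile, and 264 and 122 with 1 probe set per gene. Leaving out an array gave 484 to 1342 higher and 232 to 2540 lower, and a higher share of 21.4% without Foxp3 array 1, 81.2% without Foxp3 array 2, 68.6% without mock array 1 and 42.1% without mock array 2, beside 62.6%. The cause of these shifts was not tested. Quantile normalization, no filter, trend and robust options, array weights and the 2 groups alone also gave 0 calls. Their smallest limma adjusted p was 0.0779, 0.0924, 0.069, 0.275 and 0.614 in that order, beside 0.0667 as reported. The values near the threshold thus depended on the error shared with the other groups.

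Replicate numbers are shared between groups, but deviations of same-numbered arrays correlated from -0.143 to 0.15 over pairs of groups (0.001 for the scurfy pair), so the numbers were not taken as pairs. With a replicate block there were 0 calls in scurfy cells and 0 for the difference of the effects.

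The sign of some named genes changed with a setting, in none of which they were called; Stc2, Ccl3, Crabp2 and Pdpn were called without mock array 2, with the reported sign. Ikzf4 was 0.005 after quantile normalization. Over the arrays left out in turn the log2 difference ran from -0.20 to 0.11 for Ikzf4, -0.07 to 0.37 for Ctla4, -0.34 to 0.11 for Tnfrsf18, -0.18 to 0.23 for Ikzf2, -0.21 to 0.63 for Il2, -0.27 to 2.07 for Ifng, -0.67 to 0.27 for Il7r, -1.77 to 0.69 for Pde3b, -5.15 to 1.67 for Ifit1bl1, -3.88 to 0.32 for Stc2, -0.69 to 7.27 for Ccl3, -0.55 to 6.97 for Crabp2, -0.91 to 5.27 for Akr1c18, -0.26 to 5.35 for Pdpn, -2.22 to 0.57 for Mx1, -2.33 to 0.74 for Ifit2 and -2.18 to 4.11 for Rsad2.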
